A study of Mus musculus with 12 samples.

Results

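The genes described here are 6 mouse genes associated with Th17 cells: the transcription factors Rora and Ahr, the receptors Ccr6 and Il23r, and the membrane protein genes Tmem176a and Tmem176b. Their probe sets, the groups of short probes that measure 1 transcript on an Affymetrix array, were taken by gene symbol from the platform's annotation. Of 45101 probe sets on the array, 16 carried 1 of these symbols: 9 for Rora, 2 for Ahr, 1 for Ccr6, 3 for Tmem176a and 1 for Tmem176b. No probe set was matched to Il23r here, so 5 of the 6 genes have values, out of 18194 genes with a probe set of a single symbol. Testing was limited to probe sets that came to log2 5 or more on 2 or more arrays, and 11 of the 16 did.

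Th17 cells are CD4 T helper cells that defend mucosal surfaces and take part in autoimmune inflammation. They form under TGF-beta and IL-6, are maintained by IL-23 and draw on the nuclear receptor RORalpha, which Rora encodes. Ahr encodes the aryl hydrocarbon receptor, a ligand-activated transcription factor that raises IL-22. Ccr6 encodes the receptor of the chemokine CCL20, and Tmem176a and Tmem176b encode related 4-pass membrane proteins found in Th17 cells and in dendritic cells. None of these genes is restricted to Th17 cells: regulatory T cells can express Rora, Ahr and Ccr6, and B cells express Ccr6.

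The mice carried 1 S1pr2 allele with a Venus fluorescence reporter (S1pr2V/+) and had received chicken gamma globulin (CGG) in complete Freund's adjuvant (CFA) under the skin 10 days earlier, and each array held the pooled cells of 2 to 6 mice. Lymph node groups were all CD4+, CD44-high and Dump-. They were Venus-high Tfh (CXCR5+ PD1-high, 3 arrays), Venus-low Tfh (CXCR5+ PD1-high, 3 arrays), PD1-intermediate Th (CXCR5+, 2 arrays) and PD1-low Th (CXCR5-low, 2 arrays). Naive CD4+ T cells (CD44-low, CD62L-high) came from spleen (2 arrays). Their labels name immunized mice, while the design text also mentions control mice. The antibodies of the Dump gate and the age of the mice were not given in the sources used here. The labels do not say whether arrays came from separate sorts, so p-values measure the spread between these pools.

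Sequence upstream of the start sites was read for 4 of the 5 measured genes, Ahr not being in the table used, because Tmem176a and Tmem176b lie next to each other and Rora encodes a factor that binds the letters AGGTCA. The 3 stretches below are from RefSeq on GRCm38.p6, plus strand, 5′ to 3′. The first is the 108 bases between the nearest start site of Tmem176b, which is read leftwards, and the first start site of Tmem176a, which is read rightwards. The other 2 are the 250 bases before the first Ccr6 start site and before the Rora start site. Capitals mark AGGTCA, the core bound by RORalpha, and GCGTG, the core bound by Ahr with its partner Arnt, on either strand.
Tmem176b to Tmem176a, chr6:48841375-48841482: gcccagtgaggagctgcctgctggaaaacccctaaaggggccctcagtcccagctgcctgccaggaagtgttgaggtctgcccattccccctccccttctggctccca
Ccr6, chr17:8235793-8236042: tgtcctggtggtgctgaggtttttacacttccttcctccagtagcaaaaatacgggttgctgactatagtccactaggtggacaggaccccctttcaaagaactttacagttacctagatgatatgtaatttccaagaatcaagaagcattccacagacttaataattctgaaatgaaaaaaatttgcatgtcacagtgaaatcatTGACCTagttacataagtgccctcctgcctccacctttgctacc
Rora, chr9:68653536-68653785: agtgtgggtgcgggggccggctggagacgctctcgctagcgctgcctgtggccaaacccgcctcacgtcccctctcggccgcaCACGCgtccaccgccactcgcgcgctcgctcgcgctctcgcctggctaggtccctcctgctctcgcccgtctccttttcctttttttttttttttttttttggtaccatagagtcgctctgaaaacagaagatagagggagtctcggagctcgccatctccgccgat

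The Ccr6 stretch held 1 AGGTCA match, in reverse, and the Rora stretch held 1 GCGTG match, in reverse. The 250 bases before the other Ccr6 start site, which are not printed, held neither motif. Neither motif was found in the 108 bases between Tmem176b and Tmem176a, of which 63.9% are G or C. Among the 32851 RefSeq promoter windows, 14% held AGGTCA and 28.2% held GCGTG in the 250 bases before the start, and 6.34% and 16.5% did in 108 bases. The matches describe these letters and are not measured binding sites.

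The arrays fell into 3 sets by the quantiles of their values, which the labels do not name, and this bears on every level below. Set 1 held the first Venus-high, Venus-low and naive arrays. Set 2 held the second Venus-high, Venus-low and naive arrays and the first PD1-low array, and set 3 held the remaining 5 arrays. The lymph node pools of set 2 were of 6 mice each, the other lymph node pools of 4 and the naive pools of 2. Among lymph node arrays, pool size and set 2 cannot be told apart. Of the whole table, 3315 probe sets were displaced in set 2, meaning by over 3 log2 units against sets 1 and 3 in 1 direction, among them 1 of the 16 studied, Rora 1455165_at. The T cell markers Cd3d, Cd3e, Cd3g, Cd4 and Cd5 read at least 12.85 on every array. All 6 macrophage and monocyte markers listed (Lyz2, Csf1r, Itgam, Adgre1, Cd14 and Fcer1g) stayed below log2 5 on every array, as did 4 of 5 dendritic cell markers, the exception being Zbtb46, which was itself displaced.

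The study's gates order the cells from naive to germinal centre Tfh, and the comparisons ask where along that order the Th17-associated genes are read. Their levels took 3 shapes. Rora, by its brightest probe set, was high in all CXCR5+ groups, low in PD1-low Th and lowest in naive cells. Ahr and Ccr6 were highest in PD1-intermediate Th and Venus-low Tfh and lower in Venus-high Tfh, while Tmem176a and Tmem176b had their highest mean in Venus-low Tfh.

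**Figure D1:**
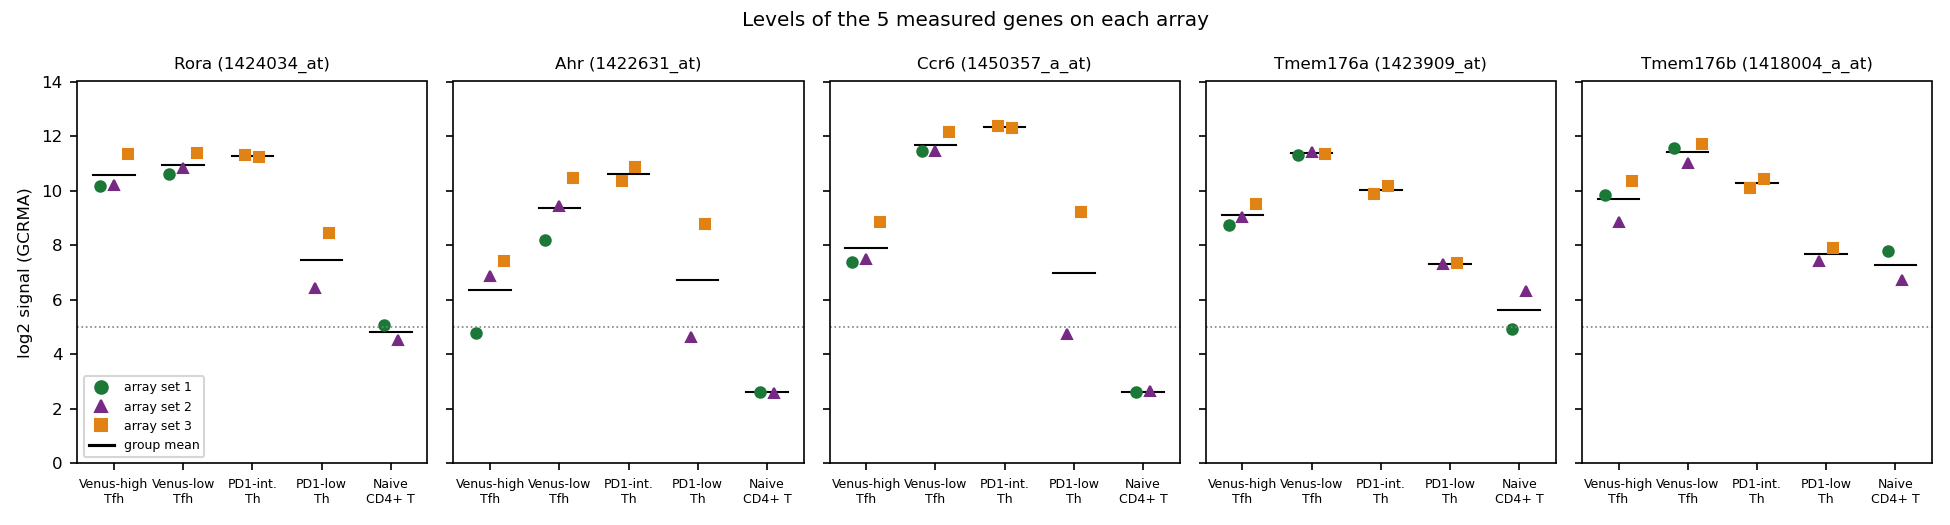
Log2 signal of the 5 measured genes on each of 12 arrays, by sorted group, for the kept probe set of highest mean of each gene. Symbols mark the array set, horizontal lines the group mean and the dotted line log2 5. Rora stays between 10.17 and 11.37 on all CXCR5+ arrays, whereas Ccr6 lies between 7.37 and 8.86 in Venus-high Tfh and at 11.44 or more in Venus-low Tfh and PD1-intermediate Th.

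Rora, best read by 1424034_at, gave log2 10.17, 10.20 and 11.33 in Venus-high Tfh and 10.59, 10.82 and 11.37 in Venus-low Tfh. It gave 11.29 and 11.23 in PD1-intermediate Th, 6.42 and 8.46 in PD1-low Th, and 5.09 and 4.54 in naive cells. The 8 CXCR5+ arrays overlapped among their groups and all lay above the 4 other arrays. In limma over 17901 kept probe sets and all 12 arrays, Venus-high minus Venus-low Tfh was -0.36 ± 0.54 (SE, adjusted p = 1.00), and with the array set as a term -0.36 ± 0.26 (adjusted p = 0.422). Venus-low Tfh minus PD1-intermediate Th was -0.33 ± 0.61 (adjusted p = 0.760). These neighbours in the order did not differ beyond their spread.

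Of the steps between neighbouring groups, the one that passed in limma lay between the CXCR5+ groups and PD1-low Th. Rora 1424034_at was 3.82 ± 0.67 higher in PD1-intermediate than in PD1-low Th (limma adjusted p = 0.0221), 3.48 ± 0.61 higher in Venus-low Tfh (adjusted p = 0.0101) and 3.12 ± 0.61 higher in Venus-high Tfh (adjusted p = 0.0155). Within array set 3 alone, PD1-intermediate minus PD1-low was 2.80. The call against PD1-low Th was lost without the first or second PD1-intermediate array (adjusted p = 0.197 and 0.141) or the PD1-low array of set 2 (adjusted p = 0.107), and for the mean of the 5 kept Rora probe sets (4.54 ± 1.25, adjusted p = 0.0973). PD1-low minus naive was 2.63 ± 0.67 (adjusted p = 0.544), with no overlap of the 2 arrays a side, and 1.89 within set 2. This further step passed with the array set as a random block (2.12, limma adjusted p = 0.0286), not as a fixed term (2.10, adjusted p = 0.0844). The 2 PD1-low arrays, 1 in set 2 and 1 in set 3, were far apart (SD 1.44).

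The other Rora probe sets are annotated to the same gene and carry other probes. Probe set 1420583_a_at, from another accession, correlated with 1424034_at by 0.992 over the 12 arrays, which share array sets and groups. It read 2.03 and 2.16 in naive cells against 7.57 to 9.35 on the CXCR5+ arrays. With naive cells, all below log2 5, set to that floor, the rise was at least 10.1-fold in Venus-high Tfh (limma adjusted p = 3.47e-04) and at least 11.7-fold in Venus-low Tfh (adjusted p = 3.27e-04). In PD1-intermediate Th, whose arrays share no array set with naive cells, it was at least 15.5-fold (adjusted p = 8.66e-04). For 1420583_a_at that difference was 5.60 with the array set as a term (limma adjusted p = 4.40e-04), against 6.86 without it. Its PD1-intermediate minus PD1-low difference of 4.66 ± 0.67 also passed (adjusted p = 0.00858), but not without the same arrays (adjusted p = 0.0994, 0.0653 and 0.0675).

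Of 1436325_at and 1436326_at, which share an accession, neither passed for PD1-intermediate against PD1-low, at 3.77 ± 1.41 (limma adjusted p = 0.368) and 4.59 ± 1.34 (adjusted p = 0.174). Both passed with the array set as a random block, at 2.89 (adjusted p = 0.0281) and 3.49 (adjusted p = 0.0491). Naive arrays did not always lie below PD1-low arrays: 1436326_at read 6.67 and 3.38 in naive cells and 3.55 and 6.86 in PD1-low Th, which overlap. Probe set 1436325_at read 6.63 and 6.71 on the 2 Tfh arrays of set 1 but 8.87 to 10.13 on those of sets 2 and 3. Probe set 1455165_at read 2.07 or 2.08 on all 4 arrays of set 2 and 6.37 to 11.03 elsewhere, so its group means mix array sets, and it passed in none of the 10 comparisons. The remaining 4, 1424035_at, 1441085_at, 1458129_at and 1458145_at, stayed between 1.97 and 2.32 on every array and passed no filter.

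**Figure D2:**
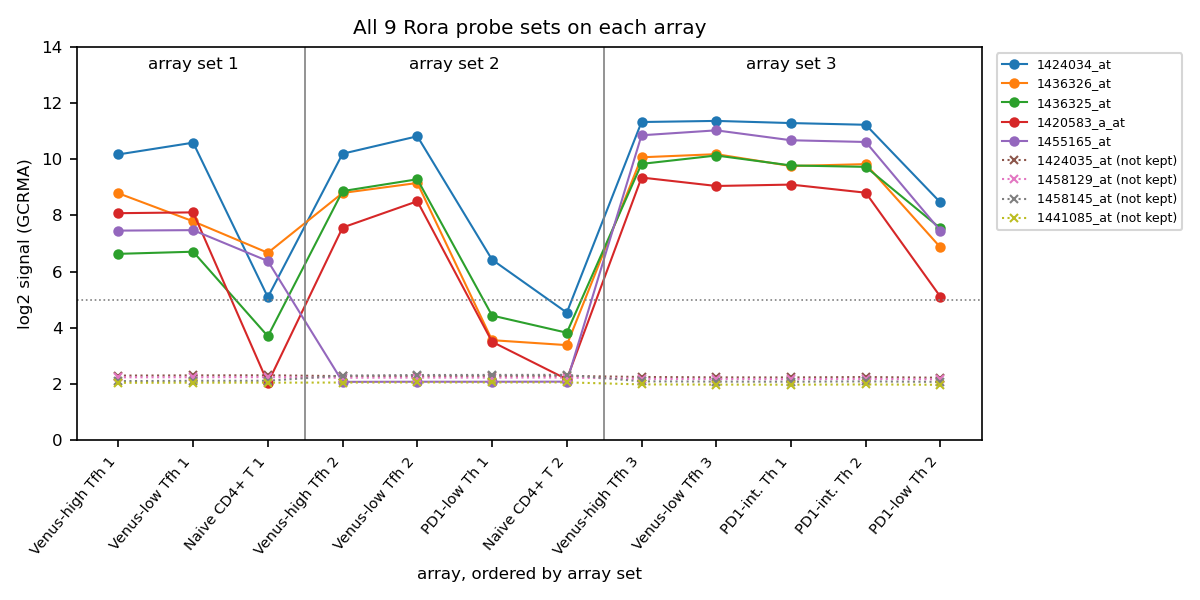
Log2 signal of all 9 Rora probe sets on each array, with arrays ordered by array set and the dotted horizontal line at log2 5. Solid lines are the 5 kept probe sets and dotted lines the 4 not kept, which lie near log2 2 throughout, and 1455165_at drops to 2.07 or 2.08 on the 4 arrays of set 2.

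Ahr, read by 1422631_at, gave log2 4.79, 6.86 and 7.43 in Venus-high Tfh and 8.18, 9.42 and 10.44 in Venus-low Tfh. It gave 10.36 and 10.87 in PD1-intermediate Th, 4.65 and 8.77 in PD1-low Th, and 2.63 and 2.60 in naive cells. Every Venus-low array lay above every Venus-high array, whereas the PD1-low arrays spanned both. The second Ahr probe set, 1450695_at, is annotated to the same accession and stayed between 2.11 and 2.16 on all 12 arrays.

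Venus-high minus Venus-low Tfh was -2.99 ± 1.10 for Ahr, which did not pass in limma (adjusted p = 0.494). Arrays of equal number lay in the same set, and within sets 1, 2 and 3 the difference was -3.39, -2.57 and -3.02. Ahr fell with the array set as a term (SE 0.66, adjusted p = 0.0322), as it did with the number as a block on the 6 Tfh arrays (SE 0.19, adjusted p = 0.0227). Relative to naive cells, Venus-low Tfh had at least 20.4-fold more Ahr signal (limma adjusted p = 0.00970) and PD1-intermediate Th at least 48.9-fold more (adjusted p = 0.0107). PD1-intermediate and naive arrays share no array set, so the second of these bounds can hold a difference between sets. With the array set as a term, PD1-intermediate minus naive was 5.59 for Ahr (limma adjusted p = 0.0154), against 7.997 without it. The other neighbours, PD1-intermediate against Venus-low, Venus-low against PD1-low, PD1-low against Venus-high and Venus-high against naive, had adjusted p of 0.680, 0.329, 0.941 and 0.114. Of these, Venus-low minus PD1-low (3.23, adjusted p = 0.0186) and Venus-high minus naive (2.94, adjusted p = 0.0234) passed with the array set as a term. PD1-intermediate minus PD1-low was 3.90 ± 1.35 (adjusted p = 0.294) and passed in 0 of 23 alternatives.

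Ccr6, read by 1450357_a_at, gave log2 7.37, 7.48 and 8.86 in Venus-high Tfh and 11.45, 11.44 and 12.14 in Venus-low Tfh. It gave 12.37 and 12.30 in PD1-intermediate Th, 4.73 and 9.22 in PD1-low Th, and 2.61 and 2.65 in naive cells. Its order was that of PD1-intermediate, Venus-low, Venus-high, PD1-low and naive, with overlap only between Venus-high Tfh and PD1-low Th. Venus-high minus Venus-low Tfh was -3.77 ± 0.98 (limma adjusted p = 0.207), and -4.08, -3.96 and -3.28 within the 3 array sets. As for Ahr, the same difference passed with the array set as a term (SE 0.65, adjusted p = 0.0147) and with the replicate number as a block (SE 0.20, adjusted p = 0.0222). Without the PD1-low array of set 2 or of set 3 it also passed (adjusted p = 0.0232 and 0.0233).

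Relative to naive cells, the Ccr6 signal rose at least 161-fold in PD1-intermediate Th (limma adjusted p = 0.00229), at least 102-fold in Venus-low Tfh (adjusted p = 0.00115) and at least 7.48-fold in Venus-high Tfh (adjusted p = 0.0170). PD1-intermediate and naive arrays share no array set, so the first of these bounds can hold a difference between sets. With the array set as a term, PD1-intermediate minus naive was 7.75 (limma adjusted p = 0.00447), against 9.70 without it. Against PD1-low Th the Ccr6 signal was 4.70 ± 1.09 higher in Venus-low Tfh (limma adjusted p = 0.0379). PD1-intermediate minus PD1-low was 5.36 ± 1.20 and did not pass (adjusted p = 0.0638). It passed with the array set as a term, at 4.29 ± 0.85 (adjusted p = 0.0253), and without the PD1-low array of set 3, at 7.60 (adjusted p = 0.00145), while within set 3 it was 3.11. Venus-low minus PD1-intermediate was -0.66 ± 1.09 (adjusted p = 0.741), and Venus-high minus PD1-low 0.93 ± 1.09 (adjusted p = 0.827). PD1-low minus naive was 4.35 ± 1.20 for Ccr6 (limma adjusted p = 0.656). That difference was 2.08 within set 2 and 6.60 without the PD1-low array of set 2.

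Other cell types can carry Ccr6, so their markers are given beside it. Of the B cell markers, Cd79a and Ms4a1 did not come to log2 5 on any of the 12 arrays. Cd79b, a subunit of the B cell receptor, read 2.50 to 3.99 in Venus-high Tfh, 2.61 to 6.64 in Venus-low Tfh, 6.65 and 6.68 in PD1-intermediate Th, 5.83 and 8.99 in PD1-low Th and at most 2.81 in naive cells. The log2 of the summed level of the 4 annotated B cell markers ranged over 4.46 to 6.13, 4.46 to 7.05, 6.84 to 6.93, 6.91 to 9.03 and 4.47 to 6.12 in these groups. Pax5, 1 of these markers, was itself displaced, reading 5.67 to 5.96 on the arrays of set 2 and at most 2.06 on the others. The sums on set 2 arrays carry that displacement, among them the upper ends in Venus-high Tfh and naive cells. From the gamma delta T cell list, the scavenger receptor gene 5830411N06Rik, named by its array symbol, read 2.16 to 4.16 in Venus-high Tfh and 3.72 to 6.16 in Venus-low Tfh. It read 6.55 and 7.71 in PD1-intermediate Th, 2.17 and 5.29 in PD1-low Th and 2.17 on both naive arrays. Sox13 of the same list stayed below log2 5, while Trdc, Tcrg-C1 and Tcrg-V4 were not annotated. From the CD8 and NK cell list, Cd8a and Ncr1 stayed below log2 5 and Klrb1c was not annotated. Eomes read 2.36 to 2.86 in Venus-high Tfh, 2.37 to 4.16 in Venus-low Tfh and 5.85 on both PD1-intermediate arrays. It read 4.52 and 8.09 in PD1-low Th and at most 2.67 in naive cells. Cd8b1 read 2.51 to 3.13, 2.55 to 4.03, 4.64 and 4.75, 6.35 and 6.62, and 3.08 and 5.15 in the same groups. The part of these cell types in the Ccr6 levels was not tested, and fewer expressing cells and less RNA per cell cannot be told apart in sorted pools.

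Tmem176a, read by 1423909_at, gave log2 8.75, 9.04 and 9.49 in Venus-high Tfh and 11.32, 11.41 and 11.35 in Venus-low Tfh. It gave 9.88 and 10.17 in PD1-intermediate Th, 7.30 and 7.33 in PD1-low Th, and 4.94 and 6.32 in naive cells. No groups overlapped, and here the 2 PD1-low arrays read nearly the same (SD 0.02) although they came from different array sets. Probe set 1441811_x_at gave 8.86, 8.47 and 9.17 in Venus-high and 11.10, 10.83 and 10.64 in Venus-low Tfh. In the other groups it gave 9.15 and 9.27, 6.43 and 6.42, and 6.18 and 5.95 in the same order. The dimmer 1425603_at gave 6.03, 5.18 and 7.16 in Venus-high Tfh and 8.75, 9.12 and 10.04 in Venus-low Tfh, which did not overlap either. It gave 8.06 and 8.41 in PD1-intermediate Th, 5.18 and 4.48 in PD1-low Th, and 3.83 and 4.39 in naive cells.

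All 3 Tmem176a probe sets fell from Venus-low to Venus-high Tfh in limma, by 2.02 ± 0.24 for 1441811_x_at (adjusted p = 0.0126), by 2.27 ± 0.36 for 1423909_at (adjusted p = 0.0350) and by 3.18 ± 0.54 for 1425603_at (adjusted p = 0.0482). Within the 3 array sets the differences were -2.24, -2.36 and -1.47 for 1441811_x_at. The call for 1441811_x_at was lost only without the second Venus-low array (adjusted p = 0.0772) among 22 alternatives. That for 1423909_at held in 12 of 24 alternatives and that for 1425603_at in 9 of 22, with adjusted p from 8.73e-04 to 0.162 and from 0.00181 to 0.177. The first was lost without any 1 of the 10 lymph node arrays, and the second without any 1 array other than the third Venus-high one.

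Tmem176b, read by 1418004_a_at, gave 9.83, 8.86 and 10.36 in Venus-high Tfh and 11.54, 11.03 and 11.72 in Venus-low Tfh. It gave 10.10 and 10.43 in PD1-intermediate Th, 7.43 and 7.90 in PD1-low Th, and 7.78 and 6.73 in naive cells. Venus-low Tfh lay above every other array, and PD1-low Th and naive cells overlapped. Venus-high minus Venus-low was -1.75 ± 0.44 (limma adjusted p = 0.191) and -1.72, -2.17 and -1.37 within the array sets. It passed with the array set as a term (SE 0.21, adjusted p = 0.00561), as it did with the replicate block (SE 0.19, adjusted p = 0.0348).

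Tmem176a and Tmem176b are neighbours in the genome, as printed above. The values of Tmem176a 1423909_at and Tmem176b correlated by 0.927 over the 12 arrays, and by 0.972 once array set effects were removed, which describes arrays that share groups. Both were higher in PD1-intermediate than in PD1-low Th, by 2.71 ± 0.44 for Tmem176a 1423909_at (limma adjusted p = 0.0158), by 2.78 ± 0.29 for 1441811_x_at (adjusted p = 0.00183) and by 2.60 ± 0.54 for Tmem176b (adjusted p = 0.0469). The call for 1441811_x_at held in all 21 alternatives, with a largest adjusted p of 0.0295. That for 1423909_at was lost without any 1 of the 4 PD1-intermediate and PD1-low arrays (adjusted p up to 0.134), as was that for Tmem176b (up to 0.340), which was also lost without the first Venus-high or any 1 Venus-low array. The third Tmem176a probe set, 1425603_at, was higher by 3.40 ± 0.66 (adjusted p = 0.0336), a call that held in 11 of 21 alternatives (adjusted p up to 0.233). Venus-low Tfh minus PD1-intermediate Th was 1.34 ± 0.40, 1.65 ± 0.27 and 1.17 ± 0.49 for these 3, and none passed (adjusted p = 0.367, 0.0564 and 0.591). With the array set as a term 1441811_x_at (1.66, adjusted p = 0.0217) and Tmem176b (1.54, adjusted p = 0.0390) rose in Venus-low Tfh.

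Of the innate lymphoid cell markers, 4 of 5 were annotated. Kit, the stem cell factor receptor, read 3.27, 4.13 and 7.04 in Venus-low Tfh, where the Tmem176 genes had their highest mean, and 2.18 to 2.25 on the other 9 arrays. Zbtb16 stayed below log2 5, while Id2 and Gata3, which T cells also express, were above it on every array. The log2 of the summed level of the 4 markers ranged over 11.70 to 12.80 in Venus-high Tfh, 11.92 to 12.77 in Venus-low Tfh, 12.39 to 12.46 in PD1-intermediate Th, 11.40 to 12.15 in PD1-low Th and 11.02 to 11.47 in naive cells. The part of such cells in the Tmem176 levels was not tested.

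**Figure D3:**
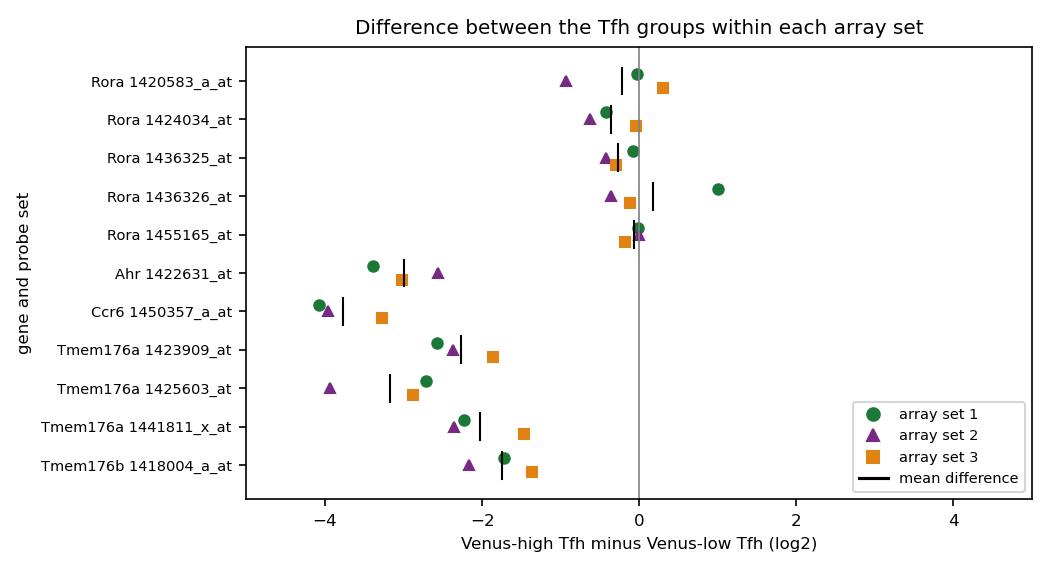
Venus-high minus Venus-low Tfh, in log2 units, for each of the 11 kept probe sets. Symbols are the difference within each array set and the black bar is the mean. Ahr, Ccr6, Tmem176a and Tmem176b are below 0 in all 3 sets, between -4.08 and -1.37, while the 5 Rora probe sets lie between -0.94 and 1.00.

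Counted over the kept probe sets, which are not independent within a gene, 0 of 11 rose and 3 fell from Venus-low to Venus-high Tfh. Among all 17901 tested, 0.397% fell and 0.609% were called either way in limma. With the array set as a term 6 of 11 fell, where 11.6% of all were called. For PD1-intermediate against PD1-low Th 6 of 11 rose, where 1.87% of all did, and the median difference was 3.82 against 0.27 over all probe sets. With the array set as a term 7 rose, where 9.07% of all were called. The counts of higher probe sets against PD1-low Th were 5 for Venus-high Tfh (4.25% of all) and 7 for Venus-low Tfh (4.13%). Against naive cells they were 6 for Venus-high (6.59%), 9 for Venus-low (6.64%) and 9 for PD1-intermediate (4.61%). The kept probe sets include some that passed the filter only through the groups where they are high, so these counts describe them and support nothing further.

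For the remaining 3 comparisons limma called 0 of 11. These were Venus-low Tfh against PD1-intermediate Th (0.268% of all called), Venus-high Tfh against PD1-intermediate Th (1.6%) and PD1-low Th against naive cells (0.0335%). At an unadjusted p under 0.05, 3 were higher in Venus-low Tfh (2.24% of all), 4 lower in Venus-high Tfh (7.28%) and 5 higher in PD1-low Th (3.53%). With the array set as a term 2 rose in Venus-low Tfh against PD1-intermediate Th, where 3.05% of all were called. For Venus-high minus PD1-intermediate, Ahr differed by -4.25 ± 1.23 (adjusted p = 0.204) and Ccr6 by -4.43 ± 1.09 (adjusted p = 0.119), and within set 3 by -3.18 and -3.47. Ccr6 passed with the array set as a random block (-3.19, adjusted p = 0.0310), not as a fixed term (adjusted p = 0.0732), and without either PD1-low array (adjusted p = 0.00653 and 0.00654). With the replicate number as a block over all arrays both passed (adjusted p = 0.0269 for Ccr6 and 0.0189 for Ahr). The median of all probe sets was itself shifted by -0.45 in that comparison and by -0.44 for Venus-low against PD1-intermediate, and both shifts were -0.01 with the array set as a term.

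**Figure D4:**
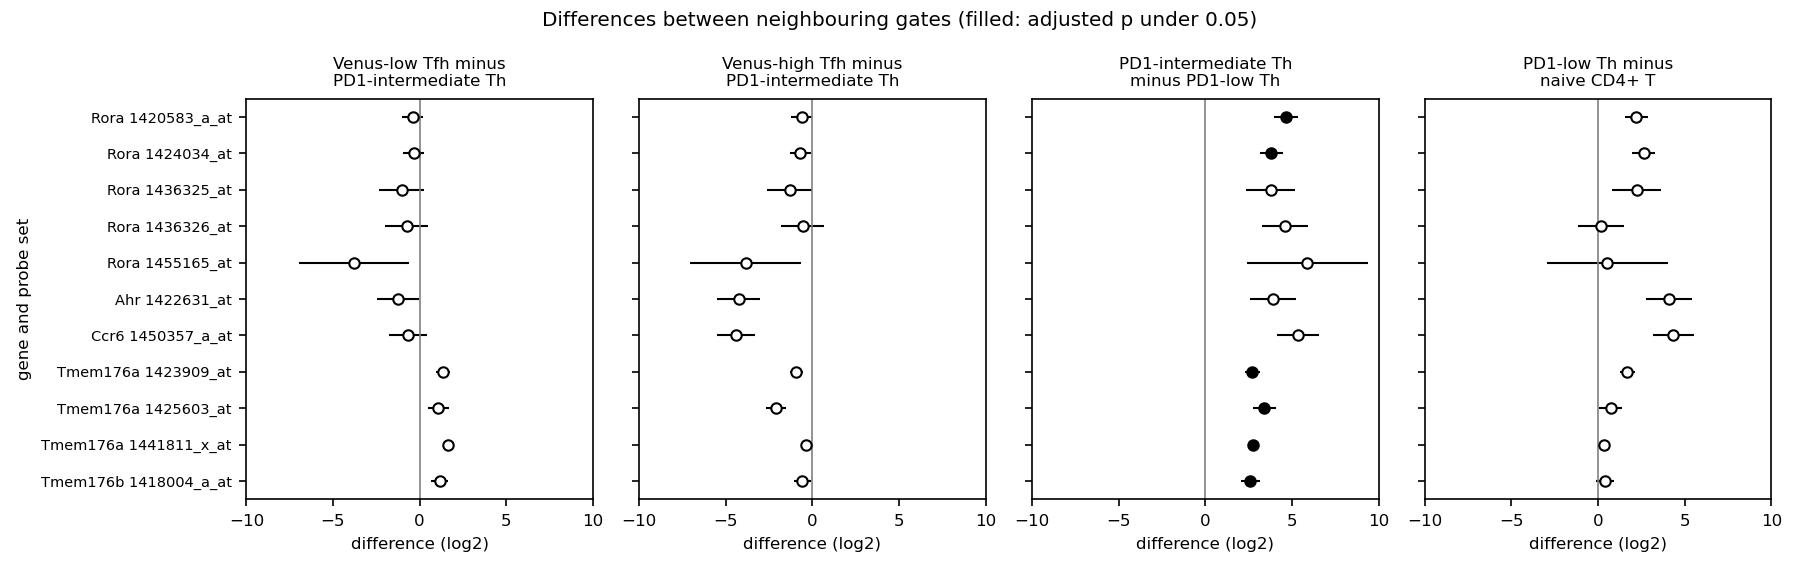
Difference ± SE in log2 units for the 11 kept probe sets in 4 comparisons of sorted groups, from limma over all arrays. Filled points have an adjusted p under 0.05, which 6 probe sets reach for PD1-intermediate minus PD1-low Th and none in the other 3 panels.

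The other genes of the Th17 pathway were read from 5 lists. Of the further regulators 7 were kept, and for PD1-intermediate against PD1-low Th 1 rose, Maf, a factor that supports IL-21 and IL-10 production, by 3.08 ± 0.63 (limma adjusted p = 0.0437). With the array set as a term Batf (1.58, adjusted p = 0.00655) and Hif1a (0.91, adjusted p = 0.0215) also rose. Stat3, the factor that relays IL-6 and IL-23 signals, differed by 0.08 ± 0.58 (adjusted p = 0.978). Between the Tfh groups 0 of 7 passed, with 1 higher at an unadjusted p under 0.05, Runx1, a Runt-domain transcription factor of T cells, at 0.58 ± 0.23 (adjusted p = 0.592).

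Of 6 Th17 cytokine genes 4 were annotated, and 3 of these, Il17a, Csf2 and Ccl20, stayed between 2.06 and 2.19 on all 12 arrays. Il17a encodes the cytokine that names the lineage. Il21, which Tfh cells also make, was the 1 kept. It read 10.63 to 12.61 on the 8 CXCR5+ arrays and 2.39 to 2.68 on the other 4, a difference of at least 80.9-fold between PD1-intermediate and PD1-low Th (limma adjusted p = 4.34e-04).

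Of 9 receptor genes 8 were kept. Il1r1, the IL-1 receptor that promotes Th17 cells, and Il12rb1, the subunit that pairs with the Il23r product, rose from PD1-low to PD1-intermediate Th. Il1r1 read 10.94 and 10.49 in PD1-intermediate Th and 2.40 and 2.47 in PD1-low Th, at least 52.4-fold higher (limma adjusted p = 0.00857). Il12rb1 rose by 2.87 ± 0.60 (adjusted p = 0.0492). Between the Tfh groups 0 of 8 passed, 1 being higher at an unadjusted p under 0.05, Tgfbr2, a TGF-beta receptor, at 0.57 ± 0.21 (adjusted p = 0.500). It rose with the array set as a term (adjusted p = 0.00950), where Il17ra, a receptor of IL-17, fell by 0.47 (adjusted p = 0.0451). Il17ra fell by 1.46 ± 0.26 from PD1-intermediate Th to Venus-high Tfh (adjusted p = 0.0309).

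Of 5 genes for the Ahr partner and Ahr targets, 3 were not kept. Ahrr, Cyp1a1 and Cyp1b1, which Ahr induces in many tissues, stayed between 2.06 and 2.35 on every array. Of the 2 genes kept, Arnt, the partner of Ahr, differed by 0.20 ± 0.54 between the Tfh groups (limma adjusted p = 1.00) and Tiparp, another target, by 0.11 ± 0.59 (adjusted p = 1.00). Of both genes, 0 passed in limma in any of the 10 comparisons, and 0 had an unadjusted p under 0.05 in any.

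Of 7 factors of other lineages, all kept, 1 fell from Venus-low to Venus-high Tfh, Foxp3, the factor of regulatory T cells. It read 6.19, 5.73 and 6.07 in Venus-high Tfh and 11.16, 10.71 and 11.13 in Venus-low Tfh, which limma called lower (SE of the difference 0.47, adjusted p = 0.00368). It read 11.05 and 11.34 in PD1-intermediate Th, 11.52 and 12.34 in PD1-low Th and 10.14 and 8.22 in naive cells. For Foxp3, PD1-intermediate minus PD1-low was -0.74 ± 0.58 and did not pass (limma adjusted p = 0.859). Ahr, Ccr6 and the Tmem176 genes had lower means in Venus-high than in Venus-low Tfh, and higher means in PD1-intermediate than in PD1-low Th. The part of Foxp3 in the levels of those genes was not tested. Bcl6, the factor of Tfh cells, rose by 1.66 ± 0.27 from PD1-low to PD1-intermediate Th (adjusted p = 0.0177). It also passed between the Tfh groups with the array set as a term, at 0.64 (adjusted p = 0.0451).

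**Figure D5:**
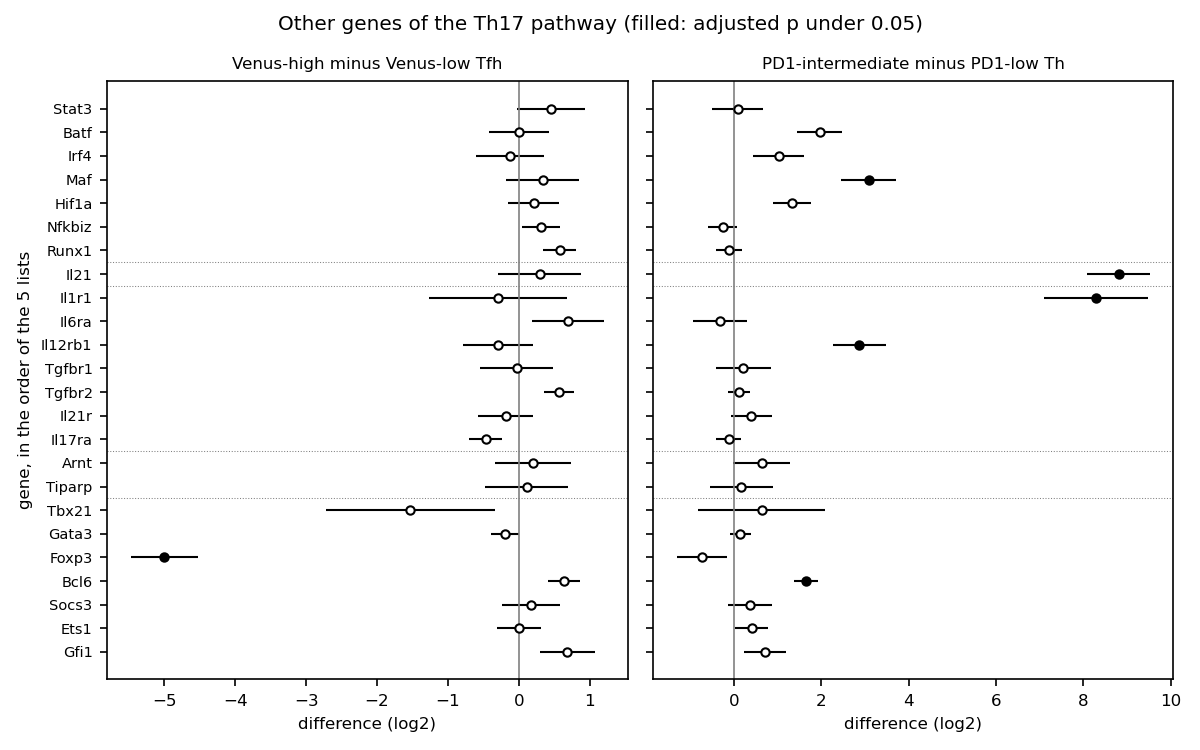
Difference ± SE in log2 units for 24 other genes of the Th17 pathway, in the order of the lists (regulators, cytokines, receptors, Ahr partner and targets, factors of other lineages), leaving out Il6st, whose probe set was displaced. Filled points have a limma adjusted p under 0.05: Foxp3 on the left, and Maf, Il21, Il1r1, Il12rb1 and Bcl6 on the right.

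The genes whose values were most like each of the 5 over the 12 arrays were taken from 9381 other genes, by Pearson correlation and with no test. Rora was most like Frmd4b (0.996), Kctd17 (0.993) and Lpxn (0.991). Ahr was most like Ebi3 (0.981), Glrx (0.968) and Cst7 (0.967), and Ccr6 most like Cst7 (0.987), Tnfrsf9 (0.984) and Morrbid (0.974). Tmem176a was most like Rrm2 (0.975), Slc43a3 (0.970) and Tpx2 (0.969), and Tmem176b most like BC052040 (0.979), Cenpe (0.969) and Asf1b (0.962). Rrm2 encodes a subunit of ribonucleotide reductase, Tpx2 and Cenpe act on the mitotic spindle and Asf1b is a histone chaperone. Among the 5 genes themselves, Ahr and Ccr6 had the highest correlation, 0.968, and Ahr and Tmem176b the lowest, 0.742.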

How the data were processed

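RNA (20 ng) was amplified and hybridized to 12 arrays, as the labels' protocols state. What the authors deposited is a table of log2 values, 1 per probe set and array, computed by GCRMA per the submitters' processing notes. Its version and which arrays were normalized together are not given in the sources used here. Probe sets with 1 gene symbol (34958 of 45101) reaching log2 5 on at least 2 arrays (17901) entered 1 limma 3.58.1 fit of 5 groups in R 4.3.3 (7 residual degrees of freedom). Tests were 2-sided, with Benjamini-Hochberg adjustment over all probe sets per comparison, and 10 pairs of groups were compared. Errors are SE. The number of arrays limits the precision. For a group with no array at log2 5, that floor replaced its values in a lower bound of the fold. This bound does not correct for array sets. For PD1-intermediate minus naive, the median of all probe sets was 0.63, and -0.03 with the array set as a term.

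Array sets came from hierarchical clustering of the arrays' quantiles into 3 clusters. Deviations of Tfh arrays of equal number from their group means correlated by 0.937, 0.967 and 0.940 across probe sets. Tfh arrays of equal number also share an array set, so these correlations cannot tell pairing of pools from array set. On the 6 Tfh arrays the replicate block is therefore the array set under another name, not a second, separate check. The fits were tested on simulated data. Alternatives used other filters, a floor at log2 5, quantile normalization, a trended variance, array set or number as a term or block, 1 value per gene, and each array left out in turn. Leaving out displaced probe sets was added after seeing the data. All probe sets of the 6 genes are described, and of each other list up to 3 genes past the threshold or the 1 of smallest p. Stat3, Tiparp and genes at background were named after seeing their values. One further regulator is not reported here. The genes and lists were chosen with earlier results of these data known. Python 3.11.15 and matplotlib 3.10.9 drew the figures.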

Additional observations from a re-analysis of the deposited data

How the results depend on the processing

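Of 1211 values of single probe sets under the alternatives, 0 called ones changed sign, 56 lost their call, 37 gained one, and 46 that were called in neither fit differed in sign. In the order Venus-high against Venus-low Tfh, Venus-low Tfh against PD1-intermediate Th, PD1-intermediate against PD1-low Th, PD1-low Th against naive cells and Venus-high Tfh against PD1-intermediate Th, limma called 109, 48, 445, 6 and 286 probe sets and 1, 0, 3, 0 and 0 of the 5 measured genes. With quantile normalization the probe sets were 360, 110, 724, 25 and 515. With the array set as a fixed term they were 2080, 546, 1623, 66 and 1347, with 4 genes in the first comparison and 2 in the second. With it as a random block they were 2405, 1047, 1918, 151 and 1592, with 4, 2, 4, 1 and 1 genes. With the replicate number as a block over 12 arrays they were 216, 3895, 713, 18 and 5193, with 1 gene in the second comparison and 3 in the fifth, but outside the Tfh groups the number does not follow the array set. The replicate block on the 6 Tfh arrays gave 1050 probe sets and 4 genes, by pairing within array sets. For the second comparison the count was 76 with the floor, 17 with the trended variance, 73 with the mean of a gene's probe sets and 85 without displaced probe sets, and 1 gene was called with the floor, with no filter and without displaced probe sets. For PD1-low against naive it was 28 with no filter, 2 with the stricter filter, 3 with the trended variance, 2 with the mean of probe sets and 14 without displaced ones. The trended variance gave 50 between the Tfh groups. Leaving out 1 array gave 21 to 125, 4 to 50, 92 to 414, 0 to 20 and 57 to 302 probe sets and 0 to 2, 0 to 0, 1 to 3, 0 to 1 and 0 to 1 genes. Where this left 1 array in a group, it was assumed to vary like the others. For PD1-intermediate against PD1-low Th, 1 gene was called without either PD1-intermediate array or the PD1-low array of set 2. Causes of these changes were not tested. Signal near log2 2 limits any statement on the probe sets not kept.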
